A study of Mus musculus with 8 samples.

Results

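The nuclear genes of the mitochondrial respiratory chain were examined, complex by complex, in multipotent progenitors (MPPs) that carried the NUP98-HOXA10hd fusion (NA) and in wild-type (WT) MPPs. Members were the genes with symbols starting with Nduf, Sdha to Sdhd, Uqcr, Cox4 to Cox8 or Atp5, without pseudogenes and without genes of the mitochondrial genome, whose normalised count averaged at least 10 over the 8 libraries. The rule found 86 members among the 37980 gene rows of the table. They comprised 37 genes named for complex I, 8 complex I assembly factors (Ndufaf), 4 genes of complex II, 8 of complex III, 12 of complex IV and 16 of complex V, plus Atp5s, a coupling factor that is no subunit. The level alone chose them, not the difference between genotypes. Of 93 gene rows with such names, 7 lay under the limit. Cox6a2, Cox8b, Cox7b2, Cox8c and Ndufa4l2 were listed at 0 in every library, Cox4i2 averaged 0.855 and Cox7a1 1.22. The lowest members were Cox6b2 at 29.0 and Ndufaf8 at 53.2.

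The respiratory chain lies in the inner mitochondrial membrane. Complex I takes electrons from NADH and complex II takes them from succinate. Ubiquinone carries them to complex III, and cytochrome c carries them on to complex IV, which reduces oxygen. Complexes I, III and IV pump protons, and complex V, the ATP synthase, lets them flow back through a rotating ring of c subunits to make ATP. Most subunits are encoded in the nucleus, a few in mitochondrial DNA, and complex II is wholly nuclear. Blood stem cells are known to rely largely on glycolysis, and oxidative metabolism rises as they leave quiescence.

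NA mice were NA LSL/+; Vav-Cre animals on C57BL/6, in which Cre, driven by the blood-wide Vav promoter, switches on the fusion from the Rosa26 locus. WT MPPs came from WT mice. The paper names age-matched WT mice for its cell cycle analysis of MPPs. Its methods do not give the age or CD45 type of the WT mice used for these libraries. Each library was made from 1000 bone marrow cells sorted by the gate Lin-CD48-ckit+Sca1+CD135+CD150-, with 4 libraries in each group, called here NA1 to NA4 and WT1 to WT4. Age in weeks was not given in the labels, and nothing in them says that the aliquots of a group came from separate mice, so p-values measure the spread between these libraries, which may be technical.

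Depth was estimated at 3876899 to 4916979 reads per library. The Hoxa10 row, which reads of the fusion can enter, lay between 298 and 371 in NA MPPs and between 130 and 149 in WT MPPs. Of the genes of the gate, Kit, Flt3 and Ly6a, and the progenitor gene Cd34, which is not part of it, were all present at means above 1000 in both groups. The groups also differed in sex-linked transcripts: Xist lay between 869 and 1285 in WT MPPs and between 0.940 and 2.80 in NA MPPs, and the Y-linked gene Eif2s3y lay between 516 and 666 in NA MPPs and was at most 0.888 in WT MPPs. Genotype and sex therefore cannot be told apart in any difference given here. The fourth library of each group lay closer to a weighted sum of the other 3 than any other library of its group. The variance of relative levels left after fitting that sum, beyond counting error, was 0.00658 for NA4 and 0.00146 for WT4, below the least variance per library among the other 3 of the group (0.0194 and 0.0151). NA2 (0.0105 against 0.0135) and WT1 (0.00576 against 0.00901) also lay below, by less. Counts of calls among the members and in the gene lists are given with and without the fourth libraries. NA3 also stood apart in its mitochondrial share: transcripts of the mitochondrial genome made up 6.91% of NA3, 9.27% to 9.47% of the other NA libraries and 7.22% to 8.12% of the WT libraries.

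A few members on which the results turn are introduced by their upstream sequence. Of these, 3, Atp5g1, Atp5g2 and Atp5g3, encode the same mature c subunit of ATP synthase from separate promoters. Sequences are from RefSeq on GRCm38.p6, read 5′ to 3′ on the strand of the gene. They cover the part of the 250 bases before the RefSeq start that overlaps no exon in GENCODE M21. Capitals mark GCATGCGC or its reverse complement GCGCATGC, the core letters bound by NRF1, a general activator of respiratory chain genes. The letters on both strands overlap in GCGCATGCGC. The c subunit genes come first, then Atp5e, the gene of the epsilon subunit and the largest fall among the called members, then Ndufa4, the called rise, and the assembly factor gene Ndufaf4.
Atp5g1, chr11:96075671-96075881, minus strand: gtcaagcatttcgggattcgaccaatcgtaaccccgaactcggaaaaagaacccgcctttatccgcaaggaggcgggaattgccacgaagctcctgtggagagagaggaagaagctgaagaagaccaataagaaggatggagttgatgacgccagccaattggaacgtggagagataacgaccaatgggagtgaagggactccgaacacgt
Atp5g2, chr15:102671128-102671297, minus strand: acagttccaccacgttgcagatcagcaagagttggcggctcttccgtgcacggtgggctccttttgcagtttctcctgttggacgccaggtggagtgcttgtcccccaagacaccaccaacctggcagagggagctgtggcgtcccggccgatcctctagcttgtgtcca
Atp5g3, chr2:73911327-73911576, minus strand: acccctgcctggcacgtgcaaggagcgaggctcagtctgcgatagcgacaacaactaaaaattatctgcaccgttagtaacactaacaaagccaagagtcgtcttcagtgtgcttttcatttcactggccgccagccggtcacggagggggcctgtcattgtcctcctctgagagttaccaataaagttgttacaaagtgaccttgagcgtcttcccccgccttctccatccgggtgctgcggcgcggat
Atp5e, chr2:174464106-174464351, minus strand: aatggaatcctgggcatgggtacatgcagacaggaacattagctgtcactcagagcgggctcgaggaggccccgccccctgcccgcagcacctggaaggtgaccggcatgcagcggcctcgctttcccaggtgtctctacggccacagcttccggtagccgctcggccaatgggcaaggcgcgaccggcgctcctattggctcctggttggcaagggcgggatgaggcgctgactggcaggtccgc
Ndufa4, chr6:11907498-11907700, minus strand: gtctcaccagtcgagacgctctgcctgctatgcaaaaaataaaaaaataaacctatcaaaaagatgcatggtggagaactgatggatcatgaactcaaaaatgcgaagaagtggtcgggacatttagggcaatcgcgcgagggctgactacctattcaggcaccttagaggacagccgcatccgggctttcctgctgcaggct
Ndufaf4, chr4:24897833-24898082, plus strand: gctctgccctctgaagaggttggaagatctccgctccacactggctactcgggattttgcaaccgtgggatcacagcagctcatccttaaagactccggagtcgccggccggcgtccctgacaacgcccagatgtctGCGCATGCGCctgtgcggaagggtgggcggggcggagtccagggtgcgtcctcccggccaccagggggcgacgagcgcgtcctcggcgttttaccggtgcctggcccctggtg
In Atp5g2 the same letters lay nearer the start, within an exon of another annotated transcript, and are shown with 10 bases on either side. The RefSeq start of Atp5g2 lies within the gene as GENCODE M21 places it (chr15:102662864-102672352). Both printed stretches of Atp5g2 are therefore inside that longer gene span.
Atp5g2, chr15:102671070-102671099, minus strand: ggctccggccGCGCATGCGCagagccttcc

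The question of the comparison was how the level of each complex in MPPs differed with NUP98-HOXA10hd. As a whole the members were slightly lower in NA MPPs, and most of the called differences lay in complexes I and V, which hold 53 of the 86 members. Of 86 members tested, 12 fell and 1 rose at a Benjamini-Hochberg adjusted p below 0.05 in limma, against 7.87% of all 11451 genes tested that were called lower and 10.1% called higher. The 12 are 14.0% of the members. The genes that fell were Atp5e, Atp5g2, Atp5g1 and Atp5o of complex V, Ndufb4, Ndufs8, Ndufs3, Ndufb10, Ndufab1 and Ndufb11 of complex I, the assembly factor gene Ndufaf4, and Cox7b of complex IV. Ndufa4 rose. Complexes II and III had no member called in either direction in limma, and 1 in each had an unadjusted p below 0.05. In all, 25 members had an unadjusted p below 0.05. The median log2 fold change (NA against WT, on the log2(normalised count + 1) scale) was -0.13 over the members and -0.01 over all genes tested. Of the 86, 63 (73.3%) were below 0, against 51.2% of all genes tested. With the trend over transcript length removed the medians were -0.031 and -0.034. The summed normalised count of the members made up 0.943% to 1.04% of the NA libraries and 1.07% to 1.14% of the WT libraries, with no overlap. Such shares depend on the library totals: with libraries scaled to equal totals, the median log2 fold change over all genes tested was itself -0.079. Before division by the totals, the sums nearly touched, at 43313 to 47246 in NA (highest in NA3) and 47390 (WT3) to 48906 in WT.

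**Figure D1:**
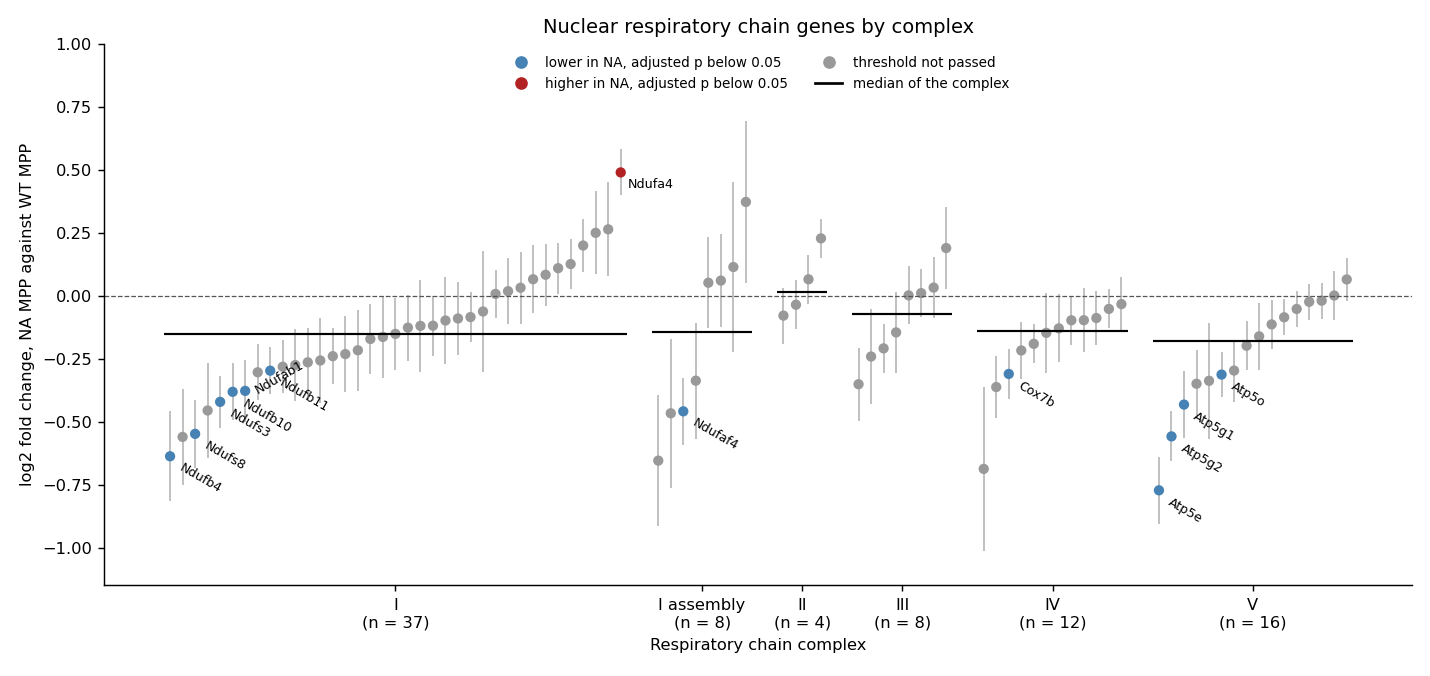
Log2 fold change of each member, NA MPP against WT MPP, with its standard error, ordered within each complex (8 libraries, 4 per group; Atp5s is left out). Blue points passed the limma threshold as lower and the red point as higher, and black lines give the median of each complex, which lay between -0.18 in complex V and 0.01 in complex II.

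These counts rest on few libraries. Without the fourth libraries, 2 members (Atp5e and Atp5g2) were called lower and Ndufa4 higher, when 1.27% of all genes were called lower and 3.31% higher, while the median over the members was -0.11. The number called lower was 3 without NA4, 4 without WT1 and 5 without WT4, when 3.93%, 5.48% and 4.17% of all genes were called lower, so these counts were near the share over all genes. Atp5e, Atp5g2, Ndufs3 and Ndufa4 were called whichever of the 8 libraries was left out. The split of calls over all genes, 901 lower and 1152 higher, became 1313 lower and 927 higher with libraries scaled to equal totals and 1210 lower and 968 higher with upper quartile scaling, and the members called lower then numbered 18 and 17.

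Complex by complex, the lower level was seen in most libraries but not evenly. The median log2 deviation of the complex V members from their WT means was -0.24 in NA1, -0.24 in NA2, -0.07 in NA3 and -0.28 in NA4, and lay between -0.02 and 0.05 in the WT libraries. Complex I gave -0.15 in NA1, -0.15 in NA2, -0.04 in NA3 and -0.25 in NA4, against -0.03 to 0.07 in WT. NA3 and WT3 were close there, and the summed counts of complex I overlapped (13223 in NA3 against 13051 in WT3). In complex IV NA3 overlapped the WT libraries: the medians were -0.15 in NA1, -0.21 in NA2, 0.01 in NA3 and -0.33 in NA4, against -0.03 to 0.05. NA3 was thus the NA library nearest to WT in complexes I, III, IV and V, and it is the library with the low mitochondrial share, whose part in this was not tested. Complex II overlapped, with -0.01 to 0.14 in NA and -0.12 to 0.09 in WT. The differences between complexes were not tested.

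**Figure D2:**
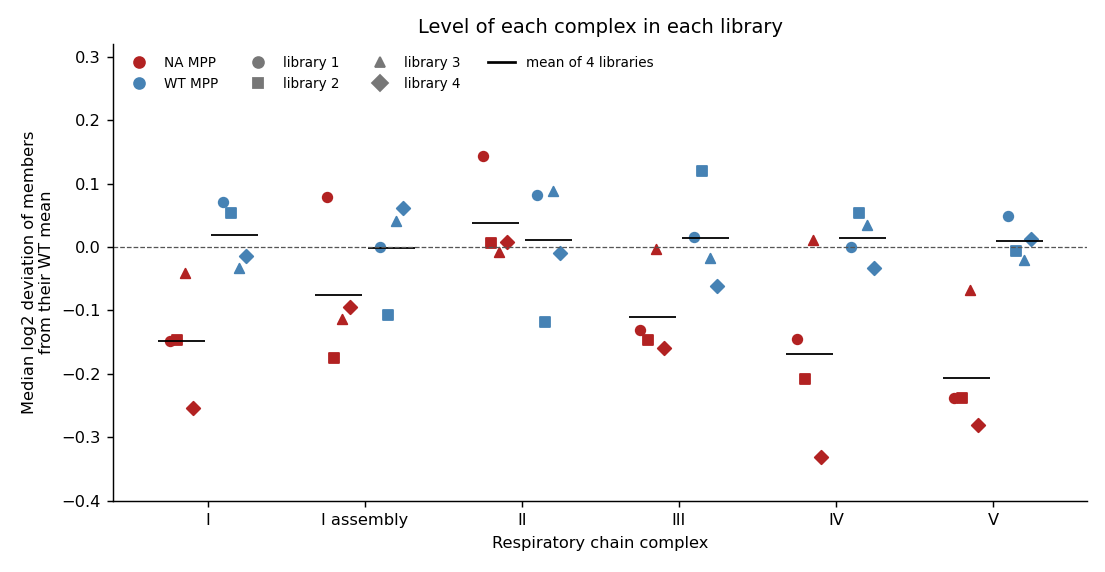
Median log2 deviation of the members of each complex from their own WT mean, for each of the 4 NA (red) and 4 WT (blue) libraries, with lines at the group means. The NA libraries lay below the WT libraries in complexes I and V, where NA3 was nearest to WT, and overlapped them in complexes II, III and IV and in the assembly factors. In complex I the gap was narrow, with NA3 at -0.041 and WT3 at -0.033.

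Complex I couples NADH oxidation to proton pumping, and several of the nuclear subunits form its catalytic core. Of the 7 core genes, 2 fell and none rose, where 7.87% of all genes tested were called lower and 10.1% higher. Ndufs8, which holds iron-sulphur clusters beside the quinone site, measured 386, 254, 314 and 268 in NA1 to NA4 and 425, 437, 496 and 410 in WT1 to WT4. All NA values lay below all WT values, and the mean fell by 31.0% (log2 fold change -0.55 ± 0.14 SE, adjusted p = 0.0129, and 0.0999 without the fourth libraries). Ndufs3, a core subunit of the peripheral arm, measured 325, 302, 307 and 318 in NA and 384, 459, 429 and 408 in WT. Its NA values spread little, without overlap with WT (log2 fold change -0.42 ± 0.10 SE, adjusted p = 0.0125, and 0.107 without the fourth libraries). The test was not passed by Ndufv2, at -0.08, Ndufs7, at 0.02, Ndufv1, at 0.07, and Ndufs1, the largest subunit, at 0.08 on the log2 scale. Core genes of the same arm thus gave different values.

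Accessory subunits surround the core and help in its assembly and stability. Of the 29 accessory genes other than Ndufa4, 4 fell, none rose, and 23 were below 0, with a median of -0.17. Over all genes tested, 7.87% were called lower, 10.1% were called higher and 51.2% lay below 0, with a median of -0.01. Ndufb4, of the membrane arm, gave the lowest fold change of complex I: it measured 79.3, 81.8, 84.9 and 61.4 in NA and 129, 111, 114 and 124 in WT, without overlap (log2 fold change -0.64 ± 0.18 SE, adjusted p = 0.0244). Ndufb10, also of the membrane arm, averaged 332 ± 29.6 (SD, n = 4) in NA and 434 ± 41.9 in WT, an adjusted p of 0.0327 in limma. Ndufab1 is the mitochondrial acyl carrier protein, which also serves fatty acid and lipoic acid synthesis. It averaged 261 ± 21.9 (SD, n = 4) in NA and 340 ± 37.9 in WT, with a limma adjusted p of 0.0467. Ndufb11, an X-linked membrane arm gene, averaged 524 ± 29.2 in NA and 645 ± 48.8 in WT, with an adjusted p of 0.0424. The groups did not overlap in any of these genes. With the length trend removed, Ndufb10 and Ndufb11 lost their calls (limma adjusted p of 0.124 and 0.133), and Ndufb4 and Ndufab1 kept them. Without the fourth libraries none of these 4 genes was called (limma adjusted p from 0.146 in Ndufb10 to 0.311 in Ndufab1).

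Ndufa4 went the other way. Named for complex I, its product is now known as a subunit of complex IV. It measured 1218, 1379, 1114 and 1183 in NA1 to NA4 and 870, 952, 798 and 860 in WT1 to WT4. Every NA library exceeded every WT library, and the rise was 40.6% (log2 fold change 0.49 ± 0.09 SE, adjusted p = 0.00251, and 0.0336 without the fourth libraries). Per kb of transcript it was the highest of the genes named for complex I, at 2276 normalised counts per kb. Its paralogue Ndufa4l2, known from hypoxic cells, was listed at 0 throughout.

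Of the 8 Ndufaf genes, whose products help to build complex I and leave it, Ndufaf4 fell and the rest did not pass the test. Over all genes tested, 7.87% were called lower. Ndufaf4 measured 137, 146, 128 and 145 in NA and 190, 178, 202 and 197 in WT, so that all NA values lay lower (log2 fold change -0.46 ± 0.13 SE, adjusted p = 0.0297, and 0.197 without the fourth libraries). Ndufaf1 had the lowest fold change of these genes, -0.65, and its groups did not overlap, but NA3 at 45.2 lay far under the other NA libraries at 96.8 to 116 and the adjusted p was 0.0954. Ndufaf6 had the highest, 0.37 ± 0.32 SE. Levels were low, from 45.5 to 126 normalised counts per kb, against a median of 350 per kb over the complex I genes.

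Complex II, succinate dehydrogenase, also works in the tricarboxylic acid cycle. Sdha, its flavoprotein, measured 1683, 1680, 1619 and 1736 in NA and 1498, 1313, 1536 and 1399 in WT. The groups did not overlap, with NA the higher, and the adjusted p of 0.0555 missed the threshold (log2 fold change 0.23 ± 0.08 SE). Sdhb, the iron-sulphur subunit, was at -0.08 ± 0.11 SE on the log2 scale. The membrane anchors Sdhc and Sdhd were at 0.07 ± 0.10 and -0.04 ± 0.10.

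Complex III passes electrons from ubiquinol to cytochrome c. Its core proteins Uqcrc1 and Uqcrc2 and the Rieske iron-sulphur protein Uqcrfs1 had log2 fold changes from 0.00 to 0.03, and Uqcrfs1 averaged 1244 ± 151 (SD, n = 4) in NA and 1222 ± 197 in WT. The 5 small subunits had a median of -0.21. Uqcr11 was the lowest at -0.35 ± 0.15 SE and Uqcrb the highest at 0.19 ± 0.16 SE. Uqcrh, the hinge protein, had the highest level of all members, 2894 normalised counts per kb, and a log2 fold change of -0.21 ± 0.10 SE (adjusted p = 0.155). The name rule leaves out Cyc1, which codes for cytochrome c1, the haem subunit of complex III. Cyc1 measured 399, 322, 497 and 334 in NA and 519, 532, 644 and 535 in WT, without overlap, and fell by 0.54 on the log2 scale (adjusted p = 0.0148). With it counted, complex III would hold a called gene.

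The nuclear genes of complex IV code for the supernumerary subunits that surround a core made in the mitochondria. All 12 were below 0 on the log2 scale, from -0.69 in Cox6b2 to -0.03 in Cox6a1, and 1 passed the test. Over all genes tested, 51.2% lay below 0 and 7.87% were called lower, so the single call was near that share. With the trend over transcript length removed, 6 of the 12 were above 0 and the median was 0.00099. Ndufa4, whose product belongs to complex IV, is not among the 12 and rose. Cox7b, an X-linked gene, measured 469, 535, 541 and 458 in NA and 650, 563, 652 and 617 in WT, without overlap (log2 fold change -0.31 ± 0.10 SE, adjusted p = 0.0438, 0.117 with the length trend removed and 0.279 without the fourth libraries). Cox5a, which binds thyroid hormone derivatives, was at -0.36 with an adjusted p of 0.0581 in limma.

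Paralogues of complex IV subunits mark tissues, and the ubiquitous forms prevailed. Cox4i1 averaged 1283 ± 62.2 (SD, n = 4) in NA and 1464 ± 72.1 in WT, with an adjusted p of 0.101 in limma, while the lung and hypoxia form Cox4i2 was near 0. Cox6a1, Cox7a2 and Cox8a were measured in all libraries, and the muscle forms Cox6a2, Cox7a1 and Cox8b were at or near 0. Cox7a2l, which takes part in supercomplex assembly, had the highest level per length of the complex, 2104 normalised counts per kb, and a log2 fold change of -0.05 ± 0.08 SE. Cox6b2, a form known from testis, was measured at low level beside Cox6b1. It lay between 14.8 and 28.9 in NA and between 28.4 and 45.3 in WT, which overlapped (adjusted p = 0.159).

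Complex V gave the largest fall of all members. Atp5e, at chr2:174461072-174464105 on the minus strand of GRCm38, codes for the epsilon subunit in the central stalk. It measured 176, 180, 213 and 156 in NA1 to NA4 and 278, 337, 327 and 296 in WT1 to WT4. The highest NA library lay below the lowest WT library, and the mean fell by 41.4% (log2 fold change -0.77 ± 0.13 SE, adjusted p = 0.00145, and 0.0320 without the fourth libraries). The other 4 genes of the F1 head did not pass the test: Atp5a1 and Atp5b, the alpha and beta subunits, were at -0.02 ± 0.07 SE on the log2 scale each, the gamma subunit gene Atp5c1 at -0.05 and the delta subunit gene Atp5d at 0.00. Atp5b averaged 3318 ± 220 (SD, n = 4) in NA and 3370 ± 108 in WT.

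In the peripheral stalk, which holds the head still, Atp5o fell. It codes for the OSCP subunit and measured 425, 446, 459 and 437 in NA and 566, 525, 552 and 553 in WT, without overlap (log2 fold change -0.31 ± 0.09 SE, adjusted p = 0.0279, and 0.208 without the fourth libraries). The other stalk genes gave -0.11 (Atp5h), -0.09 (Atp5f1) and 0.06 (Atp5j, the highest of the complex) and did not pass the test. The 4 small membrane subunits Atp5j2, Atp5k, Atp5l and Atp5mpl had log2 fold changes from -0.35 to -0.16, none past the threshold.

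The c ring, which turns with the proton flow, showed an uneven fall over its 3 genes. Atp5g2, at chr15:102662864-102672352 on the minus strand, measured 606, 596, 739 and 581 in NA and 893, 1019, 910 and 882 in WT. The groups did not overlap, although NA3 stood above the other NA libraries, and the mean fell by 31.9% (log2 fold change -0.56 ± 0.10 SE, adjusted p = 0.00176, and 0.0292 without the fourth libraries). Atp5g1, at chr11:96068852-96075670, measured 271, 278, 335 and 227 in NA and 392, 413, 329 and 357 in WT. NA3 overlapped WT3 there (log2 fold change -0.43 ± 0.13 SE, adjusted p = 0.0374, and 0.240 without the fourth libraries). Atp5g3, at chr2:73908447-73911326, had the highest level per length of the complex, 1811 normalised counts per kb, and averaged 1215 ± 152 (SD, n = 4) in NA and 1388 ± 84.6 in WT, which did not pass the test (adjusted p = 0.173).

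Within the summed count of the 3 genes, Atp5g2 made up 27.0%, 31.5%, 31.1% and 29.2% in NA1 to NA4 and 32.1%, 37.4%, 35.0% and 33.4% in WT1 to WT4. Its share was lower by 4.75 percentage points, at 29.7% ± 2.05 against 34.5% ± 2.28 (SD, n = 4; exact two-sided permutation test, p = 0.0286, adjusted over the 3 shares 0.0429). Atp5g3 made up 57.2% ± 3.46 in NA and 51.7% ± 2.89 in WT, higher by 5.53 percentage points (exact permutation p = 0.0286, adjusted 0.0429). Its lowest NA value, 53.8% in NA2, lay barely above its highest WT value, 53.7% in WT1. The share of Atp5g1 did not differ beyond the spread (13.1% ± 1.58 against 13.9% ± 1.06, exact permutation p = 0.457). With 70 assignments of the libraries, 0.0286 is the smallest p such a test can give. Without the fourth libraries the differences were -4.96 and 5.30 percentage points, with an adjusted p of 0.150, and the exact permutation test cannot pass the threshold with 3 against 3. The 3 shares sum to 100% and are not independent. The sum itself averaged 2123 ± 222 in NA and 2687 ± 79.6 in WT.

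**Figure D3:**
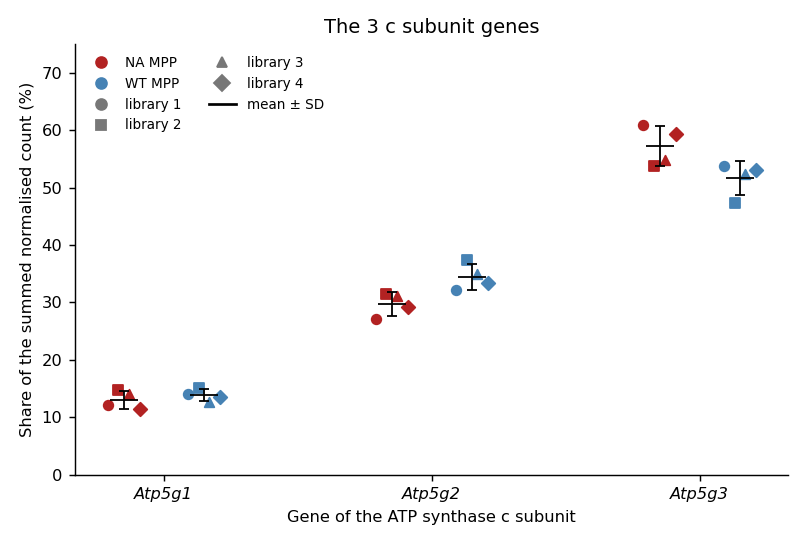
Share of Atp5g1, Atp5g2 and Atp5g3 in their summed normalised count, for each NA (red) and WT (blue) library, with mean and SD (n = 4 per group). Atp5g2 had a lower share in every NA library than in any WT library, Atp5g3 a higher one, and Atp5g1 overlapped.

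**Figure D4:**
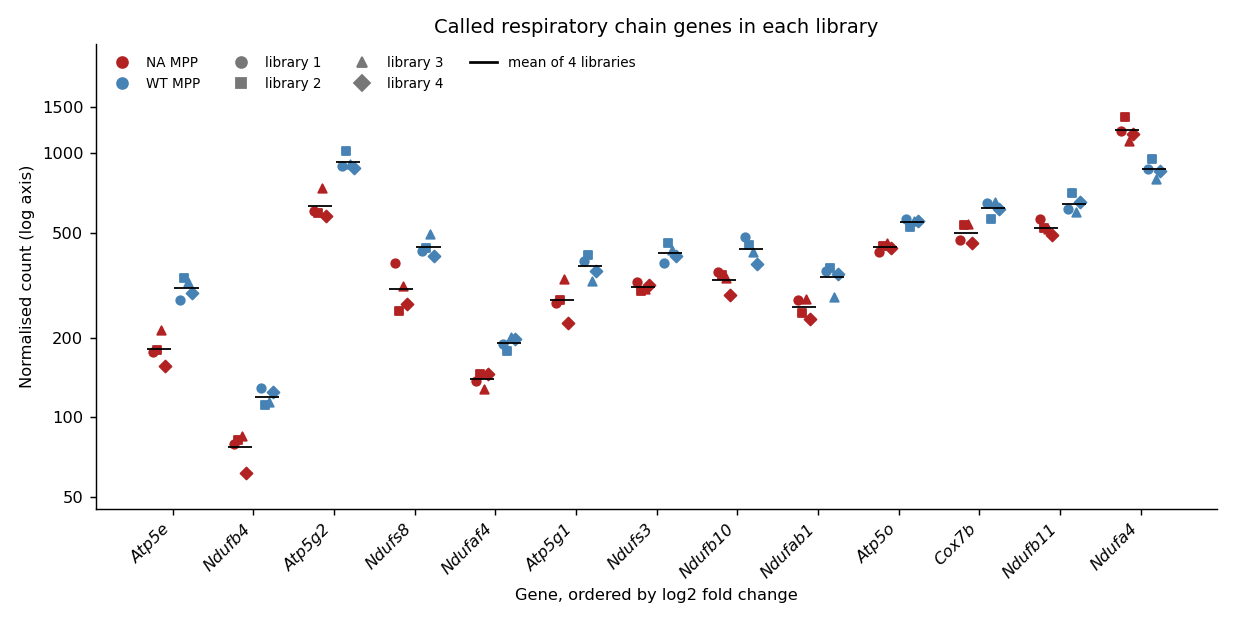
Normalised count on a log axis in each library for the 13 called members, ordered by log2 fold change, with red for NA MPP, blue for WT MPP, marker shapes for library numbers and lines for means. The groups are apart in all of them but Atp5g1, where NA3 at 335 lay above WT3 at 329.

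Over all members, every NA value lay below every WT value in 18 genes and above in 2, Ndufa4 and Sdha, where 10.5% and 11.5% of all genes tested showed such separation. By complex, the 18 comprised 10 genes of complex I, 2 assembly factors, 3 genes of complex IV and 3 of complex V.

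Transcript length moved with these differences. Members are short, with a median of 759 bases over their annotated transcripts against 2644 bases over all genes tested, and 53 of the 86 have at most 1000 bases. Among all other genes the median log2 fold change was -0.15 up to 600 bases (234 genes), -0.15 above 600 and up to 1000 bases (772 genes), -0.07 above 1000 and up to 1500 bases and 0.01 above 1500 and up to 3000 bases. The members of the same classes gave -0.21 (27 genes), -0.16 (26 genes), -0.08 (15 genes) and 0.00 (17 genes). Up to 600 bases, 2 of 27 members were called lower, where 12.0% of the other genes were, and above 600 and up to 1000 bases 5 of 26 were, where 15.5% of the other genes were. With the trend over length removed within each library, the median of the members was -0.031, close to that of all genes at -0.034. Then 8 members were called lower and 2 higher, against 8.65% and 8.81% of all genes. All 8 are among the 12: Atp5e, Atp5g2, Atp5g1, Ndufb4, Ndufs8, Ndufs3, Ndufab1 and Ndufaf4. Ndufa6 joined Ndufa4 among the genes called higher. Ndufa4, with 460 bases, went against the trend of its length class. Ndufab1, Atp5g1 and Ndufaf4, which were called lower, had median lengths of 2448, 2676 and 3632 bases. These are medians over annotated transcripts and need not be the length of the transcript expressed here. The fit with the length trend removed rests on the same lengths.

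**Figure D5:**
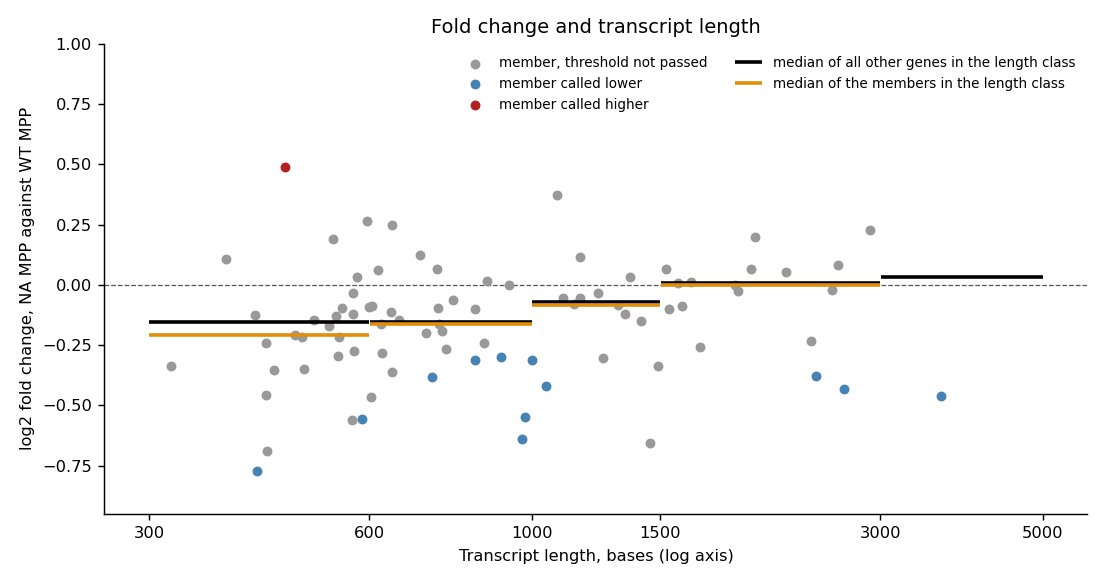
Log2 fold change of the 86 members against transcript length on a log axis, with blue for called lower and red for called higher. Black lines give the median of all other genes in each length class and orange lines that of the members, which ran close together, from -0.15 and -0.21 up to 600 bases to 0.01 and 0.00 between 1500 and 3000 bases (the class over 3000 bases holds 1 member, Ndufaf4).

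Genes that work beside the complexes gave mixed values. Their counts stand beside 7.87% of all genes called lower and 10.1% called higher. Of 16 tested genes of cytochrome c and other electron carriers, 3 fell and none rose. Besides Cyc1 these were Cycs, the gene of cytochrome c itself, at 287 ± 21.6 in NA and 375 ± 30.4 in WT (SD, n = 4; limma adjusted p = 0.0292), and Coq9, needed for ubiquinone synthesis, at -0.58 on the log2 scale. Without the fourth libraries none of the 3 was called (limma adjusted p of 0.120 for Cyc1, 0.258 for Cycs and 0.0665 for Coq9). Of 40 tested assembly factors outside the name rule, 1 fell and 1 rose. Cox14, an assembly factor of complex IV, measured 266, 269, 271 and 281 in NA and 469, 499, 511 and 429 in WT, with a log2 fold change of -0.81 ± 0.10 SE (adjusted p = 0.000156, and 0.00354 without the fourth libraries), beyond that of any member. Acad9, a complex I assembly factor related to acyl-CoA dehydrogenases, rose by 0.57 on the log2 scale (adjusted p = 0.0163, and 0.144 without the fourth libraries).

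Of 18 genes of the tricarboxylic acid cycle and pyruvate dehydrogenase, 2 fell and 1 rose, near the shares over all genes. The isocitrate dehydrogenase genes Idh3g and Idh2 gave -0.33 and -0.36 on the log2 scale and lost their calls without the fourth libraries (adjusted p of 0.0796 and 0.164). Pdha1, the alpha subunit of pyruvate dehydrogenase, rose from 756 ± 33.2 in WT to 1018 ± 30.5 in NA (SD, n = 4; limma adjusted p = 0.00259, and 0.0452 without the fourth libraries). Of 17 regulators of respiratory genes and factors of mitochondrial DNA, such as Nrf1, Gabpa, Ppargc1b and Tfam, none passed the limma threshold, 2 had an unadjusted p below 0.05, and the median was -0.01. The mRNAs of the mitochondrial genome had a median of 0.20 on the log2 scale. Of 12 tested, mt-Nd5, mt-Cytb and mt-Co1 rose and mt-Nd3 fell, with log2 fold changes of 0.88, 0.37, 0.34 and -0.77. Without the fourth libraries mt-Nd5 was still called (adjusted p = 0.0249), and mt-Cytb (0.0899), mt-Co1 (0.152) and mt-Nd3 (0.0681) were not. The part of NA3, with its low mitochondrial share, in these was not tested.

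Markers of other blood cells were mostly low or not detected, and some were lower in NA MPPs. The exceptions were Lyz2, of granulocytes and monocytes, with means of 1697 in NA and 1828 in WT, the B cell gene Cd79b with 163 and 220, and the T cell gene Lck with 145 and 227. No erythroid marker was high enough to test, and the 6 genes summed to 4.62 to 8.46 in NA libraries and 15.9 to 111 in WT libraries. Of 8 granulocyte and monocyte markers 3 were tested and Mpo was called lower (summed list 1672 to 1772 in NA and 1766 to 2354 in WT). WT3 stood above the other WT libraries in S100a9 (158 against at most 47.9), S100a8 (64.9 against at most 21.3) and Camp (39.8 against at most 7.99). Of 6 T cell markers 2 were tested and Lck was called lower (113 to 200 in NA and 183 to 302 in WT), with 4 at 0 in every library. The single tested B cell marker and the 4 megakaryocyte markers did not pass the test, with summed ranges of 101 to 228 and 128 to 211 in NA and of 181 to 263 and 117 to 165 in WT. Of the gate genes, Cd48 and Ly6a were called lower. The calls in the marker and gate lists stand beside 7.87% of all genes tested that were called lower. Without the fourth libraries none of these 4 calls passed the limma threshold (adjusted p of 0.143 for Mpo, 0.241 for Lck, 0.0675 for Cd48 and 0.163 for Ly6a). Their part in the differences of the members was not tested. In such bulk libraries, fewer cells of a type and less RNA per cell cannot be told apart.

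Letters for binding of 3 known activators were searched on both strands of the 250 bases before the RefSeq start. A window was found for 73 of the 86 members. GCATGCGC (NRF1) was present in 9 of them, or 12.3%, and in 5.34% of the 8907 tested genes with a window. Of the 12 members called lower, Atp5g2 and Ndufaf4 held it, as printed above. CCGGAAGT, letters bound by ETS factors such as GABPA, was in 4.11% of the members and 7.23% of all, and AAGATGGCG (YY1) in 1.37% and 1.59%. None of the called members held either of these. These matches describe the letters in the windows and do not show binding.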

How the data were processed

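RNA-seq of sorted MPPs was analysed, with 4 NA and 4 WT libraries of 1000 cells each, grouped by the sample titles. The authors amplified the cDNA, made tagmentation libraries with Nextera XT and sequenced them on a NextSeq 500. The submitters' processing notes name bcl2fastq, RSEM, DESeq2 and the mm10 build, without versions. The deposited values are a normalised signal, called normalised counts here: RSEM estimates that the authors had divided by 1 factor per library. In each library, low values were multiples of a step of 0.888 to 1.18, with 98.3% to 98.9% of them within 0.02 of a whole multiple, and the column sum divided by the step gave the depth.

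The planned tests on whole reads were not run, because fractional values below 1 read remained. On the log2(normalised count + 1) scale, a linear model of limma 3.58.1 (R 4.3.3) was fitted with a mean-variance trend and no covariate over 11451 genes with at least 10 in at least 4 libraries, adjusted by Benjamini-Hochberg (threshold 0.05). The fit was first tested on simulated data with known changes. Shares of the c subunit genes were tested with an exact permutation test over the 70 assignments. Symbols, coordinates and transcript lengths (the median over basic transcripts) came from GENCODE M21 on GRCm38.p6, which named 32935 rows. Of 11 pseudogene rows with member names, the highest averaged 4.39. Alternatives covered the pseudocount, filter, scaling, variance trend, depth, replicate block, length, GC content and left-out libraries.

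The genes named were every called member, the extremes of each complex, the highest level per kb, core and paralogous genes and the called genes of other lists. One item this rule covers is not reported here. Members and lists were chosen with earlier results of these data known.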

Additional observations from a re-analysis of the deposited data

Results flagged for a closer look

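In Atp5g2, the NA3 library stood apart from the other 3 NA libraries: it measured 738.6 normalised counts, against 581 to 606 in NA1, NA2 and NA4. The gap took up more of the range of the group than Dixon's 95% critical value for 4 samples allows. All 4 NA values, NA3 included, lay below the lowest WT value of 882. The same comparison was made for 46 groups of 4 libraries, and chance alone is expected to mark about 2.3 of them.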

How the results depend on the processing

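The median log2 fold change over the members moved to -0.20 with total count scaling and to -0.0307 with the length trend removed, when complex I gave -0.0476, complex IV turned to 0.00099 and complex V gave -0.0811. Complex III moved to -0.15 with the GC trend removed. The number of members called lower was 12 in the design as planned, 5 without the variance trend and 7 with the replicate block, and 2 both without the fourth libraries and without NA3 and NA4, an alternative chosen after seeing the data. Over all 11451 genes tested, 901 were called lower as planned, 595 without the variance trend and 859 with the replicate block. The number was 145 without the fourth libraries and 435 without NA3 and NA4. Within complex I, 2 were called lower without the variance trend and 0 without the fourth libraries or without NA3 and NA4. Complex V had 2 calls under each of these 3 settings. The call in the assembly factors was lost (0) with depth as a covariate, with the replicate block and under both sets of left-out libraries. The call in complex IV was lost (0) with no low-count filter, without the variance trend, with the replicate block, with the length trend removed and under both sets of left-out libraries, and became 3 with total count or upper quartile scaling and 2 with the GC trend removed. Members called higher numbered 2 where genes averaged 50 or more and with the length trend removed, both of the latter in complex I, and complex I had 0 with Ndufa4 counted in complex IV. With fewer libraries the test has less power. Otherwise the cause was not tested.

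Without each library in turn, between 3 and 18 members were called lower and 1 to 2 higher, with 1 to 8 lower in complex I, 0 to 1 among the assembly factors, 0 to 2 in complex III, 0 to 3 in complex IV and 2 to 5 in complex V. The median was -0.148 to -0.0328 in complex III and -0.27 to -0.12 in complex V. The share of Atp5g2 differed by -5.53 to -3.77 percentage points and that of Atp5g3 by 4.11 to 6.66, all with an adjusted p of 0.0857 in the exact permutation test, which cannot pass the threshold with 4 against 3. Without the fourth libraries they differed by -4.96 and 5.30. Same-numbered libraries had a small positive r in all 4 pairs (0.013 to 0.158, the highest for NA4 and WT4). Between libraries of different number r ran from -0.094 to 0.101. These values do not settle whether the numbers mark pairs, and they were not taken as pairs. With the replicate block the shares differed by -4.75 and 5.53 (adjusted p = 0.188 in the exact permutation test of signs, which cannot pass the threshold with 4 pairs). Of the 13 called members, Atp5e, Atp5g2 and Ndufa4 stayed past the threshold under all 22 refits, and each of the other 10 lost it under some. Tests with count models were not run, because whole reads could not be recovered. Amplified cDNA without molecular identifiers and the depth of each library limit the precision of genes with low counts.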
